A study of Mus musculus with 6 samples.

Results

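Hypoxia-inducible factors (HIF) and their target genes were followed in mouse lung as a list of 35 genes, 4 of them factor subunits, 15 acting in glucose uptake, glycolysis or pyruvate handling, and 16 other targets. The genes were listed by their known place in the pathway and matched by symbol. All 35 were found among the 25965 genes of the deposited table, and all 35 passed the filter on low values that left 16708 genes for testing. No lung of a mouse kept at normal oxygen was analysed here, so the values compare lungs of hypoxia-exposed mice with and without toxin and do not give the response to hypoxia itself.

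Messenger RNA was sequenced from whole lungs of 6 mice. The 3 DT mice were Zbtb46-DTR chimeras, in which the diphtheria toxin receptor is tied to Zbtb46, a factor that marks the classical dendritic lineage, and they received diphtheria toxin at 40 ng per g 1 day before hypoxia followed by 8 ng per g at intervals of 3 days, for a total of 3 doses. The design intends depletion of classical dendritic cells, but in mice Zbtb46 is also made by some endothelial cells and by erythroid progenitors. The 3 PBS mice were chimeras of the same genotype given phosphate-buffered saline. All 6 mice were exposed to 10% oxygen for 7 days. The design text is ambiguous on whether lungs were taken at the end of hypoxia or 1 day after it, which bears on every oxygen-responsive level given here. The labels give neither donor nor host of the chimeras, nor age or sex, and the study's stated interest was protection from hypoxia-induced pulmonary hypertension.

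HIF is a pair of an oxygen-sensitive alpha subunit and the stable partner Arnt. In normal oxygen, prolyl hydroxylases of the Egln family mark the alpha subunits for destruction, so their activity is set mainly through the protein and can change with no change of the messenger RNA. In low oxygen the pair binds DNA and raises genes of glycolysis, red cell production, vessel growth and mitochondrial removal, and in mouse lung vessels both Hif1a and Epas1 are known to take part in hypoxic pulmonary hypertension.

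The core of the DNA site that HIF binds is ACGTG or GCGTG, so the members' promoters were searched for these letters on both strands. RefSeq promoters of build GRCm38.p6, from 250 bases before to 50 after each start, were available for 32 of the 35 members; Bnip3l, Epas1 and Ndrg1 had no entry. The windows shown belong to the member with the classical glycolytic site (Pgk1) and to 7 members on which the results turn: Hif3a and Adm for their spread, Hk2 for the largest glycolytic fold change, and Pdk1, Kdm3a, P4ha1 and Stc2, whose groups do not overlap. All lie outside the gene limits of the deposited table, are written 5′ to 3′ on the gene's strand, and have a match in capitals (CACGT and CACGC are the same motifs read on the opposite strand). The Stc2 window holds a further match, CACGC, left in lower case.
Pgk1 (chrX:106186938-106186966, + strand): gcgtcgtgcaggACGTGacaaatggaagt
Hk2 (chr6:82774490-82774518, - strand): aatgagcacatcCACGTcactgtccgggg
Pdk1 (chr2:71873134-71873162, + strand): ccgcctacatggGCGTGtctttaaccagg
Kdm3a (chr6:71632928-71632956, - strand): ccgggaggctgtGCGTGtcttgtgagaga
P4ha1 (chr10:59323158-59323186, + strand): cactgcgtcctcGCGTGggccagcctagg
Adm (chr7:110627591-110627619, + strand): ggcaaatctgacCACGCccaccgtccgcc
Stc2 (chr11:31370276-31370304, - strand): caccacgcaaacGCGTGgccgccgccagg
Hif3a (chr7:17062597-17062625, - strand): tctggggcagggGCGTGgctgggggtgtg

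At least 1 of the 2 motifs stood in a promoter of 30 of the 32 members (93.8%), against 46.7% of 27025 genes. Counted per promoter, since a gene can have several, the shares were 37 of 46 for members (80.4%) and 43.8% of 32851 for all. ACGTG alone was found in 21 of 32 members (65.6%) and in 21.8% of all genes. Tpi1 and Vldlr had neither motif in these windows. Promoters were not matched for base composition, CACGTG counts on both strands, and a match does not show that HIF was bound.

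Markers of classical dendritic cells, the cells the toxin is meant to remove, set PBS mouse 1 apart from the other PBS mice. Xcr1, a receptor of these cells, had 6.5, 3.61 and 0.272 RPM in DT mice and 4.55, 17.3 and 20.5 RPM in PBS mice. Flt3, a cytokine receptor of the lineage, had 4.83, 3.88 and 1.52 RPM in DT mice and 3.22, 11.1 and 13.2 RPM in PBS mice. In both genes PBS mouse 1 lay within the DT values, as it did for Itgae, Cd209a and Ccr7. It did not for Clec9a, of the same list, with 4.77, 3.5 and 1.74 RPM in DT mice and 5.05, 15.8 and 14.4 RPM in PBS mice. There PBS mouse 1 was just above every DT mouse.

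Zbtb46 itself had 87.2, 82 and 84.1 RPM in DT mice and 108, 99.8 and 89.1 RPM in PBS mice, so that by this gene PBS mouse 1 was the highest. Its log2 fold change was -0.22 ± 0.07 (SE) with a limma adjusted p of 0.411. Of the 8 dendritic markers, none was called, 6 had an unadjusted p under 0.05, and groups did not overlap in 2. The summed markers, 174 to 206 RPM in DT mice and 211 to 274 RPM in PBS mice, rest mostly on Zbtb46 and Dpp4. Results are therefore also given without PBS mouse 1.

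None of the 35 members passed the threshold between DT and PBS lungs. The comparison used limma on log2(RPM + 1), where RPM are the deposited reads-per-million values on the linear scale, with Benjamini-Hochberg adjustment over all 16708 genes and a threshold of 0.05. The members' adjusted p-values ran from 0.213 to 0.984, and limma-voom on the recovered reads called none either. Across all genes 0.281% were called, 46 higher (0.275%) and 1 lower (0.00599%) in DT lungs. At an unadjusted p under 0.05, 1 member (Stc2) stood out, where 9.03% of all genes did. Each p weighs the difference between groups against a variance that limma moderates across all genes, estimated from these mice only. Because whole lung was measured, fewer cells of a type and less RNA per cell cannot be told apart.

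The intervals give, gene by gene, the size of difference that the scatter between these mice leaves room for. They do not cover a holding down of fold changes in densely covered genes, which was not tested. The 95% interval lay within 1.2-fold either way for 26 of 35 members (74.3%), against 47% of all genes and 54.3% of the 14337 genes in the members' range of mean RPM. It lay within 1.5-fold for 32 members (91.4%), the exceptions being Hif3a, Adm and Stc2, near the 83.4% of all genes and 89.1% of those in the same RPM range. That range held most genes tested and was not matched for reads per exonic base. Up to 0.03 reads per base, with 1 member among 2726 genes, the median coefficient of variation within groups was 26.4%. From 0.1 to 0.2, with 13 members among 4419 genes, it was 6.06%. The part of read density in these shares was not tested. The members' median log2 fold change was 0.04, with 22 above and 13 below 0, and that of all genes was 0.00. Without DT mouse 1 no gene of the whole table was called in either direction, so the count of 0 for the members has to be read beside that dependence. An unadjusted p under 0.05 was found for 1 of 35 members and for 1509 of all genes (9.03%) with every mouse kept. Without PBS mouse 1 it was found for 2 members and for 1496 of all genes. In that setting 56 genes were called higher and 10 lower, and still no member. The median log2 fold change was then 0.06 for the factors, 0.07 for the glycolysis and pyruvate genes, 0.02 for the other targets and 0.02 for all genes. Without that mouse it was -0.44 for Stc2, -0.05 for Pdk1, -0.07 for P4ha1, 0.09 for Kdm3a, 0.54 for Hif3a and 0.32 for Adm.

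**Figure D1:**
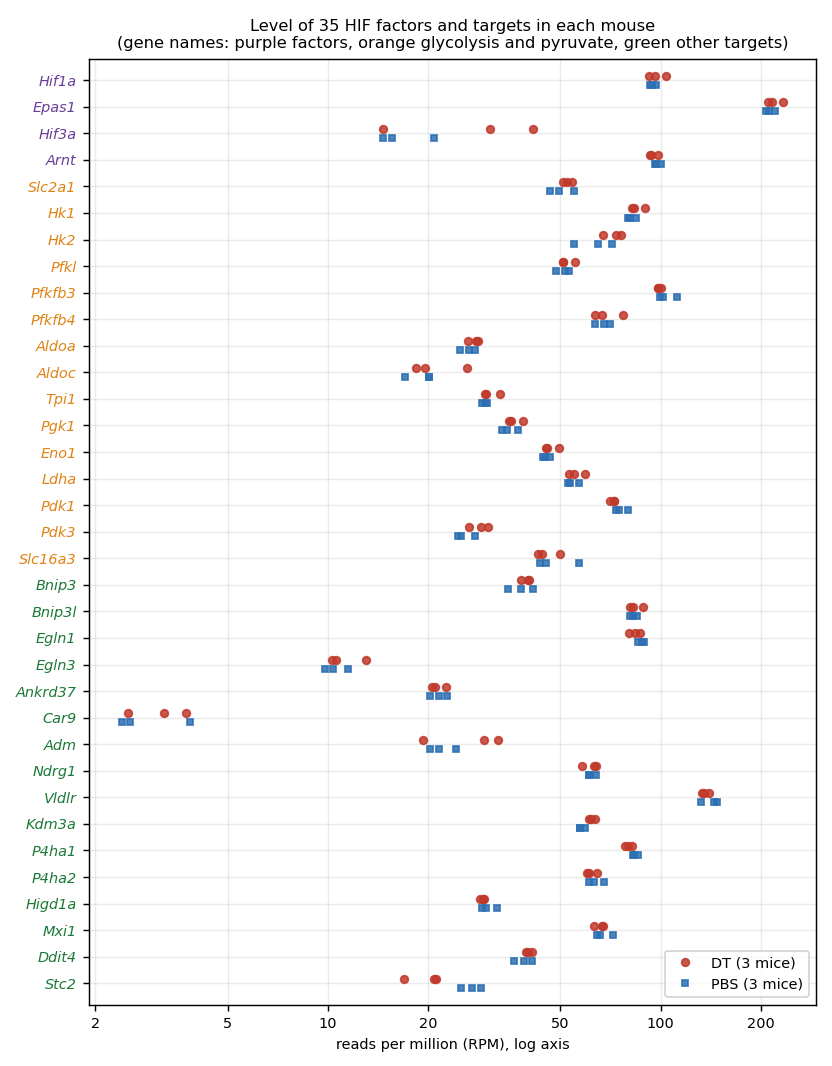
RPM of each of the 35 members in each mouse, on a log axis; red circles are the 3 DT mice, blue squares the 3 PBS mice, and the colour of a gene name gives its class. For 31 members the groups overlap; Kdm3a lies higher in all DT mice, and Pdk1, P4ha1 and Stc2 lie lower in all DT mice.

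Among the factors, Hif1a (ENSMUSG00000021109, mm10 chr12:73901375-73947530), the alpha subunit found in most cell types, had 104, 92.1 and 96.1 RPM in DT mice 1 to 3 and 96.6, 92.8 and 94.6 RPM in PBS mice 1 to 3. Epas1 (ENSMUSG00000024140, mm10 chr17:86753907-86833410), the alpha subunit prominent in endothelium, had 234, 210 and 216 RPM in DT mice and 221, 212 and 207 RPM in PBS mice. Arnt, the common partner, had 98.4, 93 and 93.7 RPM in DT mice and 100, 96.1 and 96.7 RPM in PBS mice. In all 3 genes the groups overlapped and the values within a group lay close together.

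The log2 fold changes, DT over PBS, were 0.04 ± 0.05 (SE) for Hif1a with a 95% interval of -0.08 to 0.16, 0.04 ± 0.06 for Epas1 with -0.08 to 0.17, and -0.04 ± 0.04 for Arnt with -0.14 to 0.06. The adjusted p-values from limma were 0.89 for Hif1a, 0.872 for Epas1 and 0.853 for Arnt. The ratio of Epas1 to Hif1a, each per kilobase, was 2.38, 2.41 and 2.37 in DT mice and 2.41, 2.41 and 2.3 in PBS mice. It was thus nearly the same in every mouse.

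Hif3a (ENSMUSG00000004328, mm10 chr7:17031507-17062427), whose product includes forms that restrain the other alpha subunits, behaved differently from the other factors in its spread. It had 14.6, 41.4 and 30.8 RPM in DT mice, against 14.6, 20.8 and 15.6 RPM in PBS mice. DT mouse 1 was as low as the lowest PBS mouse, and DT mice 2 and 3 were above all PBS mice. The means were 28.9 ± 13.5 RPM in DT mice and 17 ± 3.32 RPM in PBS mice (SD, n = 3 each). The log2 fold change of 0.63 ± 0.32 (SE) had an interval of -0.11 to 1.38 and a limma adjusted p of 0.619. Its size depended on DT mice 1 and 2: it was 0.32 without DT mouse 2 and 1.04 without DT mouse 1.

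Markers of adipocytes, a tissue that can stay attached to a dissected lung, also differed between mice. Their summed level was 27.7, 60.7 and 19.7 RPM in DT mice and 27.9, 72.6 and 54.5 RPM in PBS mice, so mouse 2 was highest in both groups, as it was for Hif3a. Adipoq, the adipocyte hormone adiponectin, had 1.49, 17.9 and 2.5 RPM in DT mice and 4.77, 20.1 and 14.6 RPM in PBS mice. Hif3a in DT mouse 3 was high where the adipocyte markers were low. The part of attached tissue in the Hif3a values was not tested.

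**Figure D2:**
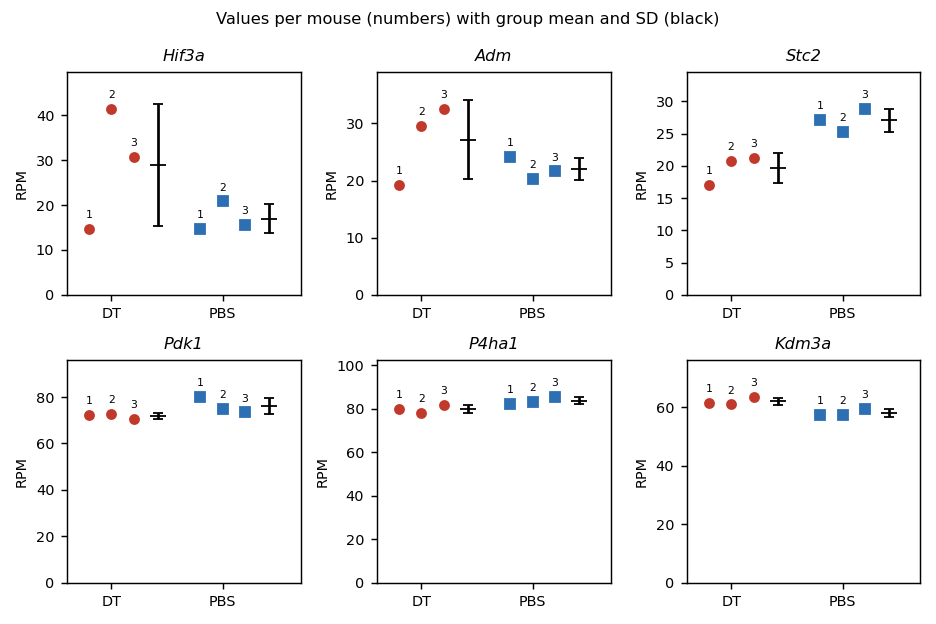
RPM of 6 members in each mouse, numbered by replicate, with DT left of PBS and the mean and SD in black beside each group; each axis starts at 0. Hif3a and Adm have wide spread in DT mice, while Stc2, Pdk1, P4ha1 and Kdm3a have groups that do not overlap.

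The 15 glycolysis and pyruvate genes differed little between the groups. None was called, 12 had a log2 fold change above 0 and 3 below, and their median was 0.05 with a range of -0.09 to 0.19. All 15 intervals lay within 1.5-fold, and 11 lay within 1.2-fold. The median without DT mouse 1 was 0.00. That mouse had the highest RPM in 15 of the 35 members and in 30.5% of all genes tested, and in 12 members after median-of-ratios scaling.

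At glucose entry, Slc2a1, the glucose transporter GLUT1, had 50.9, 52.5 and 54.2 RPM in DT mice and 55, 49.6 and 46.7 RPM in PBS mice. Hk1, a hexokinase of most tissues, had 90.1, 81.9 and 83.2 RPM in DT mice and 84.2, 81.1 and 79.9 RPM in PBS mice. Hk2, the hexokinase that HIF is known to induce, had 76.3, 73.7 and 67.1 RPM in DT mice and 54.8, 65 and 71.5 RPM in PBS mice. Hk2 overlapped through PBS mouse 3, and PBS mouse 1 was the lowest of all 6.

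Hk2 had the largest log2 fold change of the class, 0.19 ± 0.09 (SE) with an interval of -0.03 to 0.40 and a limma adjusted p of 0.613. It was 0.08 without PBS mouse 1 and 0.27 without PBS mouse 3. Slc2a1 and Hk1 each had a log2 fold change of 0.06. The ratio of Hk2 to Hk1 per kilobase was 1.21, 1.29 and 1.15 in DT mice and 0.93, 1.15 and 1.28 in PBS mice, so the groups overlapped in this ratio too.

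In the middle of the pathway, Pfkfb3, which makes the activator of phosphofructokinase, had 100, 98.1 and 98.2 RPM in DT mice and 99.4, 112 and 102 RPM in PBS mice. Its relative Pfkfb4 had 77.4, 63.6 and 66.5 RPM in DT mice and 63.6, 67.6 and 70.4 RPM in PBS mice. Aldoc, an aldolase, had 26.2, 18.4 and 19.6 RPM in DT mice and 17.1, 20.1 and 20.1 RPM in PBS mice. Groups overlapped in each, and DT mouse 1 alone stood above the other mice in Pfkfb4 and Aldoc.

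Aldoc had a log2 fold change of 0.15 ± 0.13 (SE), and -0.00 without DT mouse 1. Those of Pfkl (the liver-type phosphofructokinase), Aldoa, Tpi1, Pgk1 and Eno1, enzymes of the same chain, lay between 0.03 and 0.06. Pgk1, the first ATP-forming enzyme of the chain, had 38.7, 35 and 35.6 RPM in DT mice and 37.4, 33.4 and 34.5 RPM in PBS mice. Near-identical copies of Aldoa, Tpi1, Pgk1, Eno1 and Ldha exist in the mouse genome, and the labels do not say how shared reads were counted, so these values are uncertain.

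At the pyruvate branch, Ldha, which makes lactate, had 59.4, 53 and 54.8 RPM in DT mice and 56.9, 53.6 and 52.7 RPM in PBS mice. Pdk1, a kinase that restrains the use of pyruvate in mitochondria, had 72.3, 72.6 and 70.4 RPM in DT mice and 80, 75 and 73.4 RPM in PBS mice. Pdk3, a kinase of the same family, had 30.2, 26.5 and 28.9 RPM in DT mice and 25.1, 24.6 and 27.6 RPM in PBS mice. Pdk1 was lower in all DT mice without overlap but with a gap smaller than those between the PBS mice, while Ldha and Pdk3 overlapped.

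The log2 fold change was -0.08 ± 0.05 (SE) for Pdk1, with an interval of -0.19 to 0.03 and a limma adjusted p of 0.671. For Pdk3 it was 0.14 ± 0.08 with an interval of -0.03 to 0.32 and a limma adjusted p of 0.641. The ratio of Pdk3 to Pdk1 per kilobase was 1.27, 1.11 and 1.25 in DT mice and 0.951, 0.995 and 1.14 in PBS mice, overlapping only through DT mouse 2 and PBS mouse 3. Slc16a3, the lactate exporter MCT4, had 49.9, 43.9 and 42.8 RPM in DT mice and 56.9, 45.4 and 43.4 RPM in PBS mice, with overlap. Its log2 fold change was -0.09 ± 0.10, and 0.03 without PBS mouse 1.

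**Figure D3:**
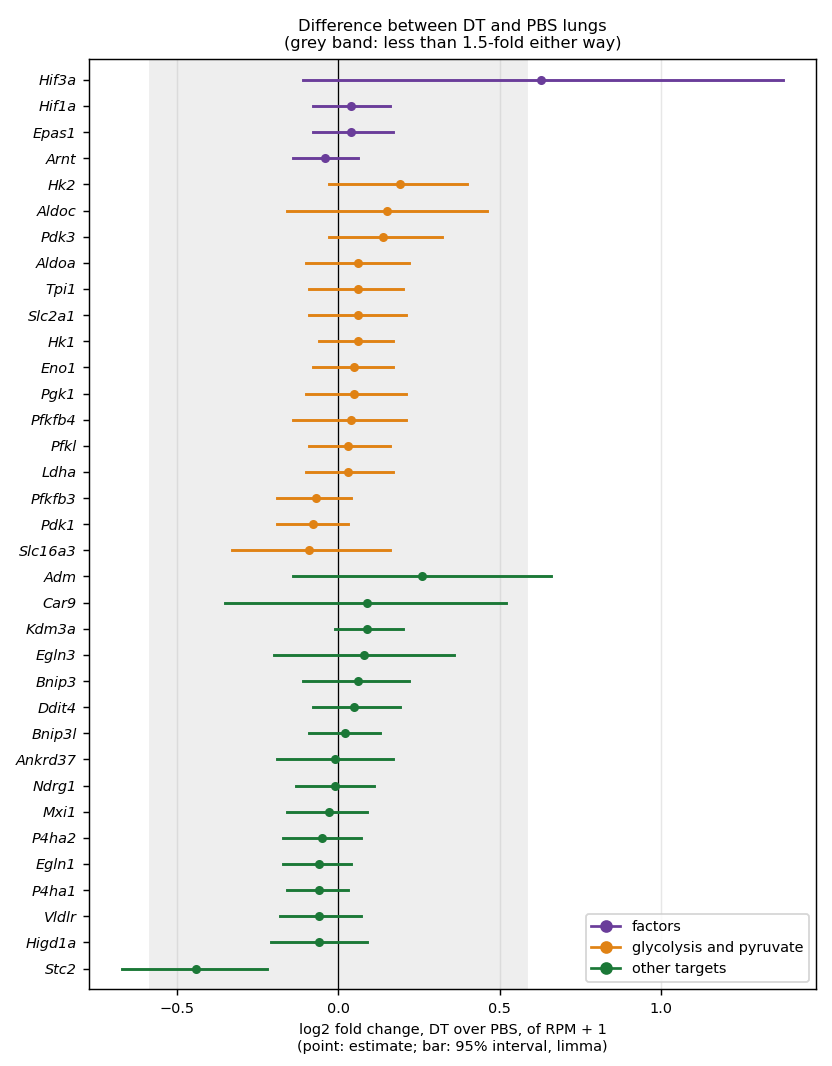
Log2 fold change of RPM + 1, DT over PBS, for each member; points are estimates, bars the 95% intervals from limma, and the grey band marks less than 1.5-fold either way. Every interval except that of Stc2 covers 0, and the widest is that of Hif3a.

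The 16 other targets also had no call, with 7 log2 fold changes above 0 and 9 below, a median of -0.01 and a range of -0.44 to 0.26. Groups did not overlap in 3 of these 16 and in 1 of the 15 glycolysis and pyruvate genes. Over all 35 members that was 4 (11.4%), 1 higher and 3 lower in DT lungs, against 14.4% of all genes tested (7.65% higher, 6.79% lower) and 14.1% of those in the members' range of mean RPM. That share is near the background. The difference between the classes, a median of 0.05 against -0.01, was not tested; the median SE of a single member was 0.06.

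Stc2 (ENSMUSG00000020303, mm10 chr11:31357307-31370074), which encodes the secreted glycoprotein stanniocalcin, had the widest separation of the groups. It had 17, 20.8 and 21.2 RPM in DT mice, against 27.1, 25.2 and 28.8 RPM in PBS mice. All 3 DT mice were below all 3 PBS mice. The means were 19.7 ± 2.31 RPM in DT mice and 27 ± 1.83 RPM in PBS mice (SD, n = 3 each).

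The log2 fold change of Stc2 was -0.44 ± 0.10 (SE), a ratio of 0.735 with a 95% interval of 0.627 to 0.861, with an unadjusted p of 0.00201 and a Benjamini-Hochberg adjusted p of 0.213 from limma. It therefore did not pass over all genes. The adjusted p ranged from 0.161 to 0.384 over the alternatives, and the log2 fold change from -0.50 without DT mouse 3 to -0.35 without DT mouse 1.

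Kdm3a, a histone demethylase, had 61.6, 61 and 63.5 RPM in DT mice and 57.3, 57.3 and 59.5 RPM in PBS mice. P4ha1, a subunit of the collagen prolyl hydroxylase, had 79.8, 78.2 and 81.9 RPM in DT mice and 82.4, 83.1 and 85.4 RPM in PBS mice. Neither overlapped, but both differences were small: the log2 fold change was 0.09 ± 0.04 (SE) for Kdm3a with a limma adjusted p of 0.567, and -0.06 ± 0.04 for P4ha1 with 0.709. These 2 members had the lowest variation within groups of all 35, a coefficient of variation of 2.16% for Kdm3a and 2.1% for P4ha1.

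Adm, the vasodilator peptide adrenomedullin, had 19.3, 29.5 and 32.5 RPM in DT mice and 24.2, 20.3 and 21.6 RPM in PBS mice. DT mouse 1 was the lowest of all 6 mice and DT mice 2 and 3 were the highest. The log2 fold change was 0.26 ± 0.17 (SE) with an interval of -0.14 to 0.66 and a limma adjusted p of 0.724, and it was 0.11 without DT mouse 3 and 0.48 without DT mouse 1.

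The feedback genes of oxygen sensing showed no common direction. Egln1, the main hydroxylase acting on the alpha subunits, had 87, 80.4 and 83.9 RPM in DT mice and 87.9, 89.2 and 85.5 RPM in PBS mice. Egln3, the family member most induced by hypoxia in many cells, had 10.3, 13 and 10.6 RPM in DT mice and 11.5, 9.81 and 10.4 RPM in PBS mice. Groups overlapped in both, with a log2 fold change of -0.06 ± 0.05 (SE) for Egln1 and 0.08 ± 0.12 for Egln3.

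Bnip3 and Bnip3l mark mitochondria for removal, and Bnip3l does so in maturing red cells. Bnip3l had 88.5, 80.9 and 82.8 RPM in DT mice and 85.2, 82.7 and 80.9 RPM in PBS mice, a log2 fold change of 0.02 ± 0.05 (SE). Markers of erythroid cells did differ: their summed level was 276 to 354 RPM in DT mice and 97.3 to 135 RPM in PBS mice, and 8 of 12 were called higher in DT lungs, against 0.275% of all genes. Slc4a1, the red cell anion exchanger, had 88.7, 71 and 70.8 RPM in DT mice and 13.2, 16.4 and 27.5 RPM in PBS mice, a log2 fold change of 2.02 ± 0.23 with a limma adjusted p of 0.0135. The globins of the same list were not called: the log2 fold change was 0.18 for Hba-a1 (limma adjusted p of 0.701) and -0.15 for Hbb-bs (0.788). Nor were Ank1, a membrane skeleton gene (0.20, limma adjusted p of 0.746), and Alas2, an enzyme of haem synthesis (0.89, limma adjusted p of 0.517). Alas2 was still higher in all DT mice, with 53.9, 47.6 and 33.2 RPM against 12.1, 32.3 and 32 RPM in PBS mice.

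Car9, a carbonic anhydrase often used as a hypoxia marker in tumours, was the member with the fewest reads. It had 3.22, 2.5 and 3.75 RPM in DT mice and 2.55, 3.84 and 2.41 RPM in PBS mice, an average of 55.7 reads per library. The groups overlapped, and the interval of its log2 fold change, -0.35 to 0.52, was the widest after that of Hif3a.

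Of the remaining targets, Vldlr, a lipoprotein receptor, had 133, 140 and 135 RPM in DT mice and 132, 145 and 148 RPM in PBS mice. Mxi1, a Myc antagonist, had 67, 63.1 and 66.8 RPM in DT mice and 71.8, 65.6 and 64.5 RPM in PBS mice. Ddit4, an inhibitor of mTOR signalling, had 41.2, 40.1 and 39.4 RPM in DT mice and 41, 36.3 and 39 RPM in PBS mice. Groups overlapped in all 3.

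Bnip3 had 40.3, 38.2 and 39.9 RPM in DT mice and 41.3, 38.1 and 34.7 RPM in PBS mice. Ndrg1, a stress-responsive gene, had 63.3, 58.1 and 63.8 RPM in DT mice and 63.9, 61.1 and 61 RPM in PBS mice. P4ha2, the relative of P4ha1, had 64.4, 60.9 and 60 RPM in DT mice and 63.2, 67.5 and 61 RPM in PBS mice. Groups overlapped here as well. The log2 fold changes of Bnip3, Ddit4, Ankrd37, Ndrg1, P4ha2 and Higd1a (a mitochondrial inner membrane protein) lay between -0.06 and 0.06.

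**Figure D4:**
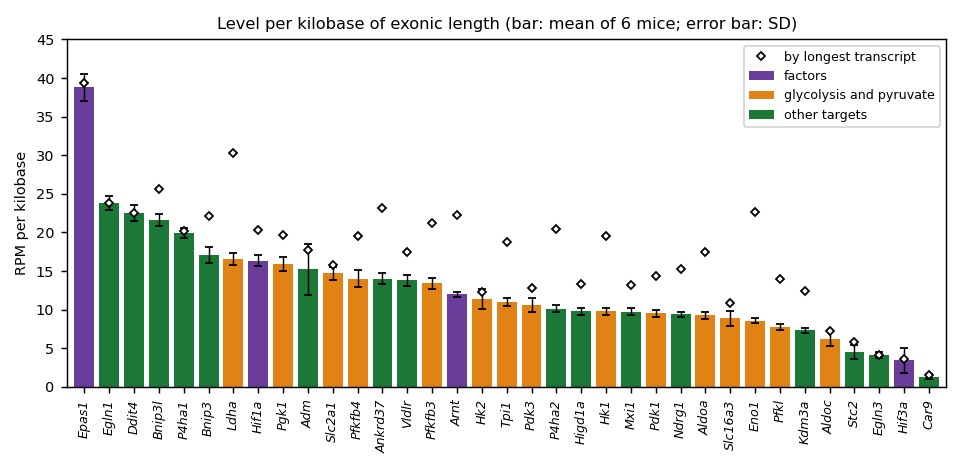
Level of each member as RPM per kilobase of exonic length; bars are means of all 6 mice, error bars the SD, and diamonds the same mean divided by the length of the longest transcript. Epas1 is highest with 38.8 and Car9 lowest with 1.32, and the order in between depends on which length is used.

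Per kilobase of exonic length, Epas1 had the highest level of the members with 38.8 ± 1.77 RPM per kilobase (SD, n = 6 mice). Egln1 came next with 23.8 ± 0.876, then Ddit4 with 22.5 ± 1.02 and Bnip3l with 21.6 ± 0.75 RPM per kilobase. Hif1a had 16.3 ± 0.714, Arnt 12 ± 0.341 and Hif3a 3.42 ± 1.63 RPM per kilobase. Car9 was lowest with 1.32 ± 0.282 RPM per kilobase.

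Most neighbours in this order overlapped between mice. Only Epas1, Bnip3l, P4ha1, Pfkfb3 and Hif3a had every mouse above every mouse of the next gene down. With the longest transcript as length, 11 members lay above Hif1a in place of 7. Ldha then had 30.3 RPM per kilobase in place of 16.6, and Eno1 22.7 in place of 8.55.

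Levels between genes carry a further limit that the members share with the table. Sftpc, the surfactant protein that is among the most abundant messages of lung, had only 8.91 RPM, and Actb, the cytoskeletal actin, 25.7 RPM, while Ahnak, a very long gene, led with 804 RPM. These 3 genes were chosen after their values were seen. Members lay between 0.0242 (Car9) and 0.709 (Epas1) reads per exonic base, where the highest of any gene was 1.68. Whether fold changes of densely covered genes are held down in these libraries was not tested.

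**Figure D5:**
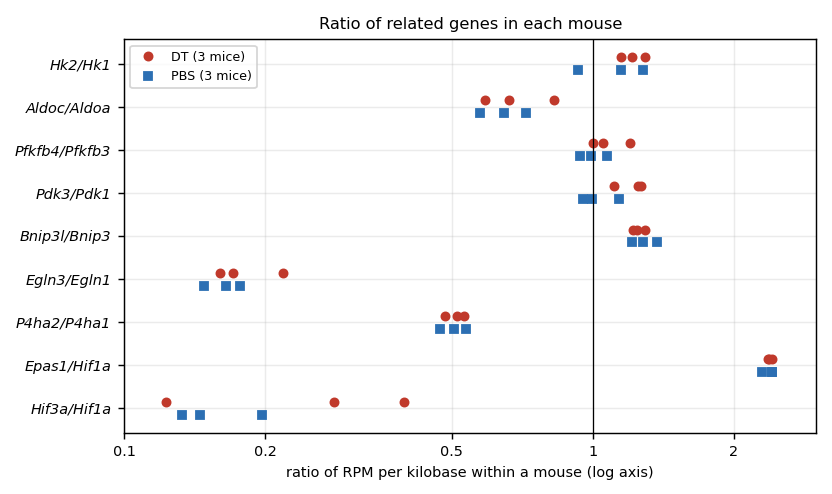
Ratio of RPM per kilobase between 9 pairs of related members in each mouse, on a log axis, with DT mice as red circles above PBS mice as blue squares. The groups overlap in all 9 pairs, and Epas1/Hif1a is the tightest.

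Ratios of RPM per kilobase within a mouse do not depend on library scaling. The log2 ratios compared between groups were taken of RPM + 1, so they depend on it through the added 1, most for members with low RPM. In 9 pairs of related members the difference in log2 ratio, DT minus PBS, ran from -0.04 for Bnip3l over Bnip3 to 0.59 for Hif3a over Hif1a. The lowest exact permutation p was 0.2, for Pdk3 over Pdk1 with a difference of 0.23, and its Benjamini-Hochberg value over the 9 pairs was 0.9. With 3 against 3 mice the smallest possible p is 0.1, so no pair could pass.

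Other genes of the pathway, 69 in all, likewise gave no call with limma, 8 of them having an unadjusted p under 0.05. Of these genes, 39 had a log2 fold change above 0 and 30 below, with a median of 0.02, and groups did not overlap in 11 (15.9%). Both counts were near the background of 9.03% and 14.4% of all genes. Among 19 genes of oxygen sensing, Ep300, a coactivator that HIF recruits, averaged 210 RPM in DT mice and 194 RPM in PBS mice, a log2 fold change of 0.11 ± 0.06 (SE). Its relative Crebbp averaged 146 RPM in DT mice and 129 RPM in PBS mice, with 0.17 ± 0.06 and a limma adjusted p of 0.433. Hif1an, the asparaginyl hydroxylase that blocks this recruitment, averaged 147 RPM in DT mice and 140 RPM in PBS mice.

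In 20 further glycolysis genes, Pkm, the pyruvate kinase, averaged 86 RPM in DT mice and 83.8 RPM in PBS mice, and Pfkfb2 averaged 157 RPM in DT mice and 142 RPM in PBS mice. Gys1, a glycogen synthase, averaged 67 RPM in DT mice and 63.1 RPM in PBS mice. Eno3, the muscle enolase, chosen after its values were seen, had a log2 fold change of -0.38 ± 0.17 and was called only when DT mouse 2 was left out (-0.61, limma adjusted p of 0.0361).

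In 30 further targets, the chemokine Cxcl12 averaged 321 RPM in DT mice and 321 RPM in PBS mice, and Flt1, a receptor of vascular endothelial growth factor, 254 RPM in DT mice and 250 RPM in PBS mice. Rora, a nuclear receptor, averaged 164 RPM in DT mice and 172 RPM in PBS mice. Epo, the red cell hormone, averaged 1.25 RPM in DT mice and 1.33 RPM in PBS mice, a log2 fold change of -0.05 ± 0.15. Epo and the following 3 genes were chosen after their values were seen.

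Arntl, a clock gene related to Arnt, averaged 20.5 RPM in DT mice and 8.68 RPM in PBS mice without overlap, a log2 fold change of 1.07 ± 0.31 with a limma adjusted p of 0.388. Angptl4, a lipase inhibitor, averaged 40.2 RPM in DT mice and 30.8 RPM in PBS mice, with 0.38 ± 0.13 and a limma adjusted p of 0.465. Ak4, a mitochondrial adenylate kinase, averaged 24.4 RPM in DT mice and 29.5 RPM in PBS mice, with -0.26 ± 0.08 and a limma adjusted p of 0.367. None of the 3 passed.

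Scatter within groups differed between members. The coefficient of variation within groups was 42.9% for Hif3a, 23.4% for Car9, 20.8% for Adm and 15.8% for Aldoc, and 10.1% for Hk2. In the 30 members with a promoter motif the median log2 fold change was 0.04, that of all 35, and groups did not overlap in 4 of these 30 (13.3%), near the 14.4% of all genes tested.

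Total reads were between 16766386 and 19084657 per library. Endothelial markers, which identify the cells where Epas1 is prominent, summed to 574 to 621 RPM in DT mice and 560 to 586 RPM in PBS mice. Monocyte markers summed to 204 to 253 RPM in DT mice and 152 to 192 RPM in PBS mice, and markers of type 2 alveolar cells to 453 to 497 RPM in DT mice and 433 to 451 RPM in PBS mice. Cardiac muscle markers summed to 143 to 186 RPM in DT mice and 185 to 187 RPM in PBS mice. No endothelial, monocyte, type 2 alveolar or cardiac marker was called, against 0.281% of all genes. A limma unadjusted p under 0.05 was found for 3 of 5 monocyte and 1 of 5 cardiac markers, against 9.03% of all genes. No endothelial or type 2 marker had such a p. Groups did not overlap in 4 of 5 monocyte, 2 of 6 endothelial and 1 of 5 cardiac markers, and in no type 2 marker. Over all genes that share was 14.4%. The lowest limma adjusted p was 0.389 among the monocyte markers and 0.631 among those of type 2 cells. No marker of these lists was without reads in all 6 mice, and the part of differing cell makeup in the members' values was not tested.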

How the data were processed

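A messenger RNA kit was used on whole-lung RNA, per the labels' protocols. The submitters' processing notes name FastQC, Trimmomatic and mm10; aligner, counter, strand use and handling of duplicates: not given in the sources used here. Log2 RPM values were deposited by the authors. On the linear scale 100% of those above the lowest were whole multiples of the value of 1 read, within 0.1%, and the lowest stood for no read. Without known strand use, reads of a gene and an overlapping antisense gene cannot be told apart. Exonic lengths came from GENCODE M21.

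Titles gave the groups. The plan named limma as the main test, with a count model in its place had raw counts been deposited. Since log2 values were deposited, limma 3.58.1 (R 4.3.3) with a mean-variance trend was fitted to log2(RPM + 1), which understates changes of low genes. Genes needed 0.538 RPM (10 reads in the median library) in at least 3 libraries and 15 reads in all. Log2 ratios of RPM + 1 within a mouse were compared by 2-sided exact permutation tests. Members and lists were chosen with earlier results of these data known. All members could be named, with pathway genes past the threshold or else the 3 with the highest RPM of each list, and up to 3 per marker list, again by highest RPM. Outside this rule, the markers Xcr1, Flt3, Itgae, Cd209a, Clec9a, Hba-a1 and Hbb-bs were named after their values were seen. Alternatives covered scaling, filter, pseudocount, limma-voom, a replicate block, length and leaving out each mouse; the deposited log2 values without a pseudocount were added after seeing the data.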

Additional observations from a re-analysis of the deposited data

How the results depend on the processing

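No member was called under any of the 14 alternatives run, and 1 to 3 had an unadjusted p under 0.05. The number of all genes with such a p was lowest without DT mouse 3, at 1089. It was highest with no filter on low values, at 1781, where more genes were tested. Over all genes, the 46 higher and 1 lower calls became 38 higher and 0 lower with median-of-ratios or trimmed-mean (TMM) scaling and 39 higher and 0 lower with upper-quartile scaling. Leaving out 1 mouse gave 0 to 56 higher calls (0 without DT mouse 1, 14 without DT mouse 3) and 0 to 90 lower calls (90 without DT mouse 2, 10 without PBS mouse 1). The other pathway genes had 0 to 1 calls when 1 mouse was left out. The cause was not tested.

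Of 490 member values under alternatives, 20 changed sign, in 14 members and only when a mouse was left out; 21 members kept their direction throughout. The lowest and highest log2 fold changes with 1 mouse left out were -0.01 and 0.08 for Hif1a, -0.00 and 0.08 for Epas1, -0.00 and 0.06 for Pfkl, -0.05 and 0.09 for Pfkfb4, -0.00 and 0.24 for Aldoc, -0.01 and 0.07 for Ldha, and -0.16 and 0.03 for Slc16a3. They were -0.01 and 0.12 for Bnip3, -0.02 and 0.04 for Bnip3l, -0.01 and 0.14 for Egln3, -0.05 and 0.03 for Ankrd37, -0.02 and 0.24 for Car9, -0.03 and 0.03 for Ndrg1, and -0.06 and 0.01 for Mxi1. Differences in log2 ratio ranged from -0.04 to 0.19 for Aldoc over Aldoa, -0.08 to 0.01 for Bnip3l over Bnip3, -0.03 to 0.06 for P4ha2 over P4ha1 and -0.01 to 0.02 for Epas1 over Hif1a. By longest transcript, 11 members lay above Hif1a in place of 7.

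With the replicate number as a block, 8 genes were called higher and 0 lower, and 3 of 35 members had an unadjusted p under 0.05, as did 1638 of 16708 genes. The deviations of same-numbered mice correlated at 0.08, 0.27 and -0.10. The value of 0.27, for the mice numbered 2, was the highest between any DT and PBS mouse, but not every mouse correlated best with its own number. With 3 mice per group these correlations cannot decide whether the numbers pair the mice. The labels give a replicate number and an identifier for each mouse, and neither names a pair. The planned quasi-likelihood and size-factor count models on recovered reads were not run, since the deposited unit is log2.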
